A study of Rattus norvegicus with 6 samples.

Results

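Long non-coding RNAs (lncRNAs) of the array's MR series, other than those named MRAK, were followed in rat H9c2 cells after hypoxia/reoxygenation (H/R). These members were chosen by name alone: every non-control probe whose identifier starts with MR but not with MRAK. The rule gave 819 of the 24684 non-control probes, each printed as 3 spots and each with an identifier of its own. They carried 15 prefixes, of which MRuc held 685 probes, MRBC 61, MRNR 46, MRFT 12 and MRLIT 3. The other 10 prefixes (MRAF, MRX, MRAB, MRAJ, MRAY, MRD, MRDQ, MRU, MRY and MRZ) held 12 probes between them.

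Long non-coding RNAs are transcripts with no recognised protein-coding frame. Some act in the nucleus on chromatin or splicing, some act in the cytoplasm on mRNA stability, and others are host transcripts from which small nucleolar RNAs or microRNAs are cut. In cardiac muscle cells several are known to respond to oxygen shortage. In the identifiers used here the letters after MR follow the pattern of database accessions: NR of curated non-coding RefSeq records, BC of full-length cDNA records in GenBank, and uc of the UCSC Known Genes set. Of the 819 identifiers 0 matched a rat RefSeq accession of the GRCr8 table used here. Only the 46 MRNR names follow the pattern of such accessions, so the others could not match. The members are therefore given by identifier and without a function, and their non-coding status is the array maker's.

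H9c2 is an established line of myoblasts derived from embryonic rat heart, and its cells divide, unlike adult heart muscle. The study had 3 control and 3 H/R samples of it. Cells were grown in DMEM with 10% fetal bovine serum, glucose at 4500 mg/L, HEPES and antibiotics. For H/R they were deprived of serum and glucose and held for 1 h in a gas mix of 1% O2, 5% CO2 and 94% N2 before 3 h back in normoxia. All 6 samples carry this same treatment text, so what the control cells received in its place, medium included, is not stated. The text also names mouse cortex as the source of RNA, against the rat cell line of every other field.

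In each group the files labelled replicates 2 and 3 came from the same array position in different scans. These pairs shared 36 spots flagged for uneven background, against at most 1 in any other pair of files. Across the members' spots, departures from the probe average had r = 0.796 (control) and 0.740 (H/R) in these pairs, and 0.239 to 0.379 in the others. Replicates 2 and 3 differed by less than the noise between arrays and were averaged to 1 array. Each group therefore has 2 arrays. The limma p-values rest on the spread between them, moderated toward that of all tested probes, and this spread may be technical. All 12 muscle markers tested were well above background in all 6 files (2 higher and 2 lower in H/R), whereas the leukocyte genes Ptprc, Adgre1 and Itgam and the endothelial genes Pecam1 and Cdh5 were well above background in none. The leukocyte markers Cd68, Csf1r and Aif1 and the endothelial marker Tek were well above background in all 6 files. Of these 3 leukocyte markers 0 passed the test. Tek was higher by 1.06 on the log2 scale (limma adjusted p = 0.00635), and its part in the members' changes was not tested. Values below are scaled signals: the spot intensity divided by the 75th percentile of its file and multiplied by a common factor of 1191 units. In a bulk sample fewer cells of a type and less RNA per cell cannot be told apart.

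About as many members passed the filter for testing as did not. A probe was tested where it was well above background in all 3 files of a group, which held for 419 of 819 members (51.2%). By prefix, 338 of 685 MRuc probes (49.3%) were tested, 33 of 61 MRBC (54.1%), 31 of 46 MRNR (67.4%) and 8 of 12 MRFT (66.7%). For comparison, 51.0% of the 3588 MRAK probes, 61.0% of the 1729 RefSeq non-coding probes and 72.0% of the 15323 coding probes passed the same filter. Of the other 400 members, 292 were well above background in none of the 6 files, 106 were so in some files but in too few, and 2 (MRuc008amf and MRuc008iis) had no usable spot in at least 1 file.

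Detection differed between arrays of the same group. Control files 1 to 3 showed 387, 413 and 425 members well above background and H/R file 1 showed 413, whereas H/R files 2 and 3, the scans of 1 array, showed 517 and 507. The dimmest probe counted as well above background had 10.2 to 12.4 units in the control files and H/R file 1, and 6.23 and 7.05 units in H/R files 2 and 3. A total of 18 members were well above background in all H/R files and in no control file, and 0 members the reverse; over all probes these counts were 302 and 8. The 18 entered the test only because they were bright in H/R. Of them 8 are among the rises counted below, where they are high by selection. The lower limit of the second H/R array moves with the detection counts, and its part in them was not tested.

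**Figure D1:**
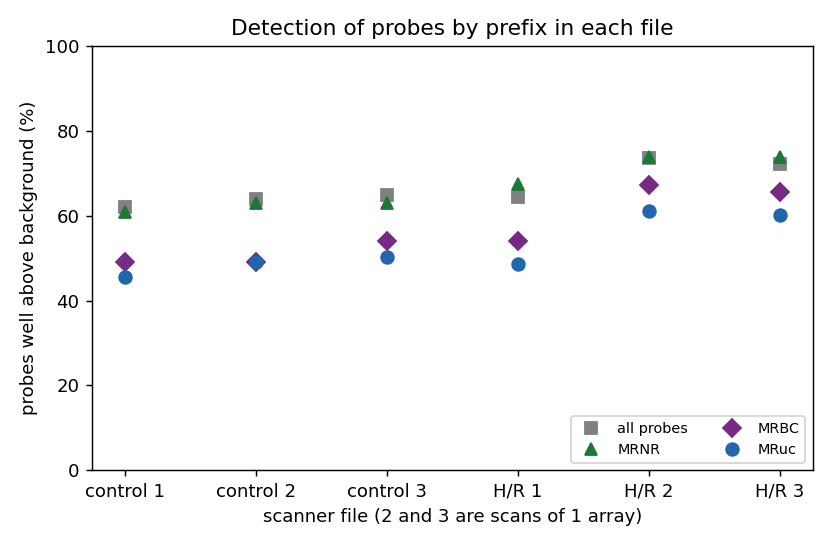
Share of probes well above background (%, vertical axis) in each of the 6 scanner files, for the MRuc, MRBC and MRNR members and for all probes. H/R files 2 and 3, scans of 1 array, lie highest for each set, at 61.1% and 60.2% for MRuc against 45.5% to 50.4% in the other files.

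After H/R 49 of the 419 tested members were higher and 30 were lower (limma, adjusted p under 0.05 over all 15899 tested probes). That is 11.7% and 7.16% of the members, where 12.3% and 10.2% of all tested probes were higher and lower. The members' share of rises was thus near the background and their share of falls below it, a difference that was not tested. Signal ranges cut to hold 140, 139 and 140 members, from dim to bright, held 3453, 3624 and 8822 of all tested probes. In these ranges 4.75%, 10.3% and 12.3% of all tested probes were lower, and 5, 10 and 15 members were. The background of falls is therefore not matched to the members' brightness. In either direction the members' share was 18.9% and that of all tested probes 22.5%. At least 2-fold changes were seen for 12 members upward and 8 downward, 20 of 419, against 5.72% of all tested probes. The median change of the members was 0.03 on the log2 scale, against 0.02 over all tested probes, and the middle 80% of members lay between -0.44 and 0.53, against -0.53 and 0.58. Most of the members' changes were thus small, with a median size of 0.22 against a median moderated standard error of 0.12.

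The surplus of rises depended on the filter and on the scaling. Of the 419 tested members 37 entered the test only through their H/R files, 13 of which were among the rises, and 6 only through their control files, 2 of which were among the falls. A member that enters through 1 group alone is bright there by selection. When only members well above background in all 6 files were tested, 42 were higher and 38 lower, or 52.5% higher against 62.0%; over all probes the share of rises went from 54.5% to 50.5%. When each file was scaled to its median instead of its 75th percentile, 40 members were higher and 50 lower, and 70 of the 79 calls were kept. The share of rises was then 44.4% for the members and 42.0% over all probes, so this turn was not particular to the members. With the 75th percentile taken over probes rather than spots, 61 members were higher and 27 lower. Rises were then 69.3% of the members' calls and 62.6% of those over all probes. With another background correction (normexp) 0 members and 0 of all 15899 tested probes passed in limma. An unadjusted limma p under 0.05 was reached by 22 of the 419 members and by 1448 of all tested probes. Under normexp 11 of the 79 called members, 6 of them named below, changed sign. An ordinary two-sample test also passed 0 members and 0 of all tested probes. In that test 113 members and 4184 of all tested probes had an unadjusted p under 0.05.

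**Figure D2:**
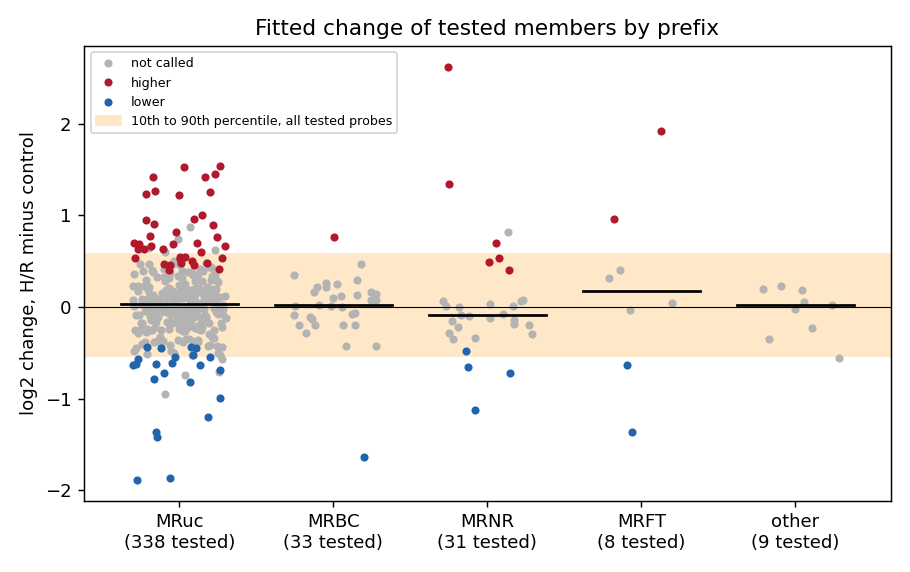
Fitted log2 change (H/R minus control, vertical axis) of each tested member by prefix, with called members in red (higher) and blue (lower), the median of each prefix as a black bar, and the 10th to 90th percentile of all tested probes shaded. The prefixes other than MRuc, MRBC, MRNR and MRFT are pooled, and none of their 9 tested members was called.

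The MRNR members, named like curated RefSeq non-coding records, held the largest rise. Of 31 tested, 6 were higher and 4 lower (32.3% called, against 22.5% of all tested probes), and the difference was not tested. Among these rises MRNR_003508 and MRNR_026924 entered the test only through their H/R files. The filter on all 6 files gave 4 higher and 4 lower. Their median of -0.09 was unstable: it was -0.027 without control array 2, -0.0015 without H/R array 2 and 0.012 without the filter on dim probes. It was -0.16 with median scaling, -0.12 without scaling and 0.40 under normexp. MRNR_003508 read 10.9, 11.7 and 14.0 units in the control files and 71.0, 74.4 and 74.2 in the H/R files. None of the control files had it well above background, and all H/R files lay far above the control files. The H/R mean was set against, in each control file, the higher of its own signal and the dimmest signal counted as detected. The rise was then 5.77-fold, which allows for the detection limit but not for the spread between arrays. The fitted log2 change was 2.62 ± 0.13, with limma's moderated SE as throughout (2 arrays in each group, limma adjusted p = 0.000673). MRNR_002855 read 72.9, 73.3 and 77.4 units in the control files and 181, 197 and 194 in the H/R files, and the groups were again clear of each other. It rose by 1.34 ± 0.11 (2.54-fold, limma adjusted p = 0.00177).

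MRNR_004446, a brighter probe, read 1800.2, 1511 and 1575 units in the control files and 2674, 2738 and 2712 in the H/R files. It rose 1.62-fold (limma adjusted p = 0.0153), with the lower of its control values in the scans of the second array. The other 3 rises were smaller: MRNR_026924 by 0.54 ± 0.12, MRNR_002854 by 0.49 ± 0.11 and MRNR_026574 by 0.40 ± 0.11 (limma adjusted p = 0.0321, 0.0273 and 0.0466). MRNR_026924 was near the detection limit, at 14.1 to 18.1 units in control and 20.3 to 23.5 in H/R, with 2 of 3 control files well above background.

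Of the MRNR falls, the largest was that of MRNR_002702, which read 5391, 5371 and 5453 units in the control files and 2537, 2439.9 and 2402 in the H/R files. Every H/R file was below every control file, and the change was -1.12 ± 0.11 (a 2.18-fold fall, limma adjusted p = 0.00261). MRNR_000040 read 2969, 3232 and 3101 units in the control files and 1936, 1797 and 1801 in the H/R files and fell by 0.72 ± 0.11 (limma adjusted p = 0.0107). MRNR_002322 fell by 0.65 ± 0.17 and MRNR_003292 by 0.48 ± 0.12 (limma adjusted p = 0.0426 and 0.0349). Under normexp both turned, to 0.07 and 0.68, and neither passed. The control files of MRNR_002322 were spread, with 249 units on array 1 and 191 and 194 in the scans of array 2. MRNR_003372, well above background in all H/R files and no control file, read 6.90, 10.4 and 9.22 units in the control files and 12.3, 17.4 and 16.6 in the H/R files and did not pass (limma adjusted p = 0.0529).

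The 3 brightest MRNR members did not pass the test. MRNR_003557 read 84107, 103562 and 103333 units in the control files and 104961, 91319 and 90364 in the H/R files, so that H/R array 1 lay above and H/R array 2 below the second control array. Its difference was 0.07 ± 0.15 (95% confidence interval -0.31 to 0.44). MRNR_024327 differed by 0.06 ± 0.11 and MRNR_003376 by -0.09 ± 0.12, at 12601 to 18137 units over both probes. Brightness of different probes does not rank their transcripts.

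Among the 12 MRFT probes 8 were tested, and 2 were higher and 2 lower. MRFT31943 read 1681, 1835 and 1859 units in the control files and 6583, 6699.6 and 6709 in the H/R files. The arrays of each group lay close together, and the rise was 1.91 ± 0.11 (3.77-fold, limma adjusted p = 0.000824). MRFT31784 read 7744, 8589 and 8489.9 units in the control files and 15610.0, 16115 and 16052 in the H/R files and rose 1.95-fold (limma adjusted p = 0.00453). In the other direction, MRFT39427 read 30392, 31575 and 32058 units in the control files and 12157, 12127 and 12038 in the H/R files, a fall of 1.36 ± 0.11 (2.57-fold, limma adjusted p = 0.00152). MRFT39790 fell by 0.63 ± 0.13 (limma adjusted p = 0.0225), from 219 to 233 units down to 133 to 159, and turned to 0.14 under normexp, where it did not pass. MRFT35910, among the 3 brightest of the prefix, differed by 0.31 ± 0.11 and did not pass (limma adjusted p = 0.0872). With 8 tested members the prefix is too small for its share of calls to be read against the background.

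MRBC members, named like cDNA records, had 1 of 33 tested higher and 1 lower, or 6.06% called against 22.5% of all tested probes. Whether the shares differ was not tested, and not passing does not show that the other 31 were unchanged. MRBC019134 read 3094, 3078 and 3055 units in the control files and 1124, 874 and 867 in the H/R files, a change of -1.64 ± 0.15 (a 3.11-fold fall, limma adjusted p = 0.00234). The H/R arrays differed from each other but both lay far below the control arrays. MRBC051480 read 266, 280.4 and 284 units in the control files and 446, 482 and 493 in the H/R files and rose 1.70-fold (limma adjusted p = 0.00896). The other 31 tested MRBC probes did not pass, among them the brightest, MRBC052873 (0.14 ± 0.13), MRBC002083 (-0.19 ± 0.11) and MRBC052489 (-0.09 ± 0.11). MRBC028546, detected in all H/R files and no control file, read 15.4, 14.0 and 16.0 units in the control files and 17.6, 17.8 and 17.6 in the H/R files. Its fitted difference of 0.21 ± 0.11 did not pass, although its detection calls differed completely between the groups.

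Most members are MRuc probes, named like UCSC Known Genes entries. Of 338 tested, 40 were higher and 23 lower (11.8% and 6.80%, against 12.3% and 10.2% of all tested probes), with a median of 0.03. The filter on all 6 files gave 35 and 30, and median scaling turned the balance to 32 and 39. Median scaling turned it over all tested probes as well, where rises went from 54.5% to 42.0% of the calls. The largest rise among them was MRuc009oek, which read 1162, 1317 and 1299 units in the control files and 3662, 3401 and 3607 in the H/R files. It rose by 1.54 ± 0.12 (2.91-fold, limma adjusted p = 0.00139). MRuc008sbh read 43.2, 41.5 and 40.3 units in the control files and 116, 129 and 126 in the H/R files and rose 2.89-fold (limma adjusted p = 0.00131). MRuc008mip read 41.9, 45.9 and 47.5 units in the control files and 113, 123 and 124 in the H/R files and rose 2.67-fold (limma adjusted p = 0.00187). In all 3 the groups stood apart and the spread between arrays was small beside the change.

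The other 5 of the 8 largest MRuc rises were dim in control cells. They entered the test only through their H/R files, so they are bright in H/R by selection. MRuc009gmv read 16.9, 12.7 and 14.7 units in the control files and 36.5, 48.0 and 46.1 in the H/R files, and MRuc008iew read 14.0, 14.6 and 15.4 units in the control files and 41.1, 34.4 and 38.1 in the H/R files. Neither was well above background in a control file, and they rose by 1.45 ± 0.18 and 1.41 ± 0.12 (2.73-fold and 2.66-fold). Their own control signals were brighter than the dimmest detected probe, so these are the fitted estimates and not lower bounds. MRuc008fqw and MRuc007wji, also not well above background in control, went from 9.33 to 13.7 units up to 23.5 to 33.4. They rose by 1.25 ± 0.16 and 1.24 ± 0.18. Set against the detection limit where it lay above their own control signal, the rises were 2.25-fold and 2.28-fold, with no allowance for the spread between arrays. MRuc009gxl, detected in 2 of 3 control files, rose 2.41-fold. Their limma adjusted p lay between 0.00192 and 0.00783. The remaining 32 MRuc rises measured 0.41 to 1.22 on the log2 scale.

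Of the MRuc falls, MRuc007hgv showed the largest. It read 159, 164 and 169 units in the control files and 43.4, 45.2 and 44.2 in the H/R files, a fall of 1.88 ± 0.11 (3.69-fold, limma adjusted p = 0.000781). MRuc008rfq read 71.8, 73.5 and 77.8 units in the control files and 18.8, 22.3 and 21.1 in the H/R files. It was well above background in 2 of the 3 H/R files and entered the test only through its control files. It is bright there by selection, and it fell 3.64-fold (limma adjusted p = 0.000985). MRuc009uxk read 113, 111 and 109.5 units in the control files and 40.0, 44.5 and 42.7 in the H/R files and fell by 1.42 ± 0.11 (limma adjusted p = 0.00153). For these 3 probes the arrays within a group were close together. The direction of the last 2 depended on the background correction: under normexp MRuc008rfq had a change of 0.43 and MRuc009uxk of 0.23, and neither passed there.

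Some of the next falls had more spread. MRuc008ynf read 60.5, 115 and 116 units in the control files and 36.5, 28.1 and 30.1 in the H/R files, so that its control arrays differed by 0.93 on the log2 scale. It fell by 1.36 ± 0.31 (limma adjusted p = 0.0300), or by 1.83 without control array 1 and by 0.89 without control array 2, and under normexp it turned to 0.30 and did not pass. MRuc008lzo read 212, 236 and 231 units in the control files and 86.0, 109 and 109 in the H/R files and fell by 1.20 ± 0.15 (limma adjusted p = 0.00534). MRuc007bet, a bright probe, read 6838, 7409.9 and 7418 units in the control files and 3468, 3691 and 3698 in the H/R files and fell 1.99-fold (limma adjusted p = 0.00425). MRuc008rkv and MRuc009dii fell by 0.82 ± 0.21 and 0.79 ± 0.16 (limma adjusted p = 0.0441 and 0.0218), and in both the control arrays differed. The remaining 15 MRuc falls measured -0.72 to -0.43. The 3 brightest MRuc probes, MRuc007hrz, MRuc007gex and MRuc007tcw, differed by 0.03 ± 0.16, -0.03 ± 0.15 and -0.09 ± 0.13, with H/R array 1 above H/R array 2 in each.

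**Figure D3:**
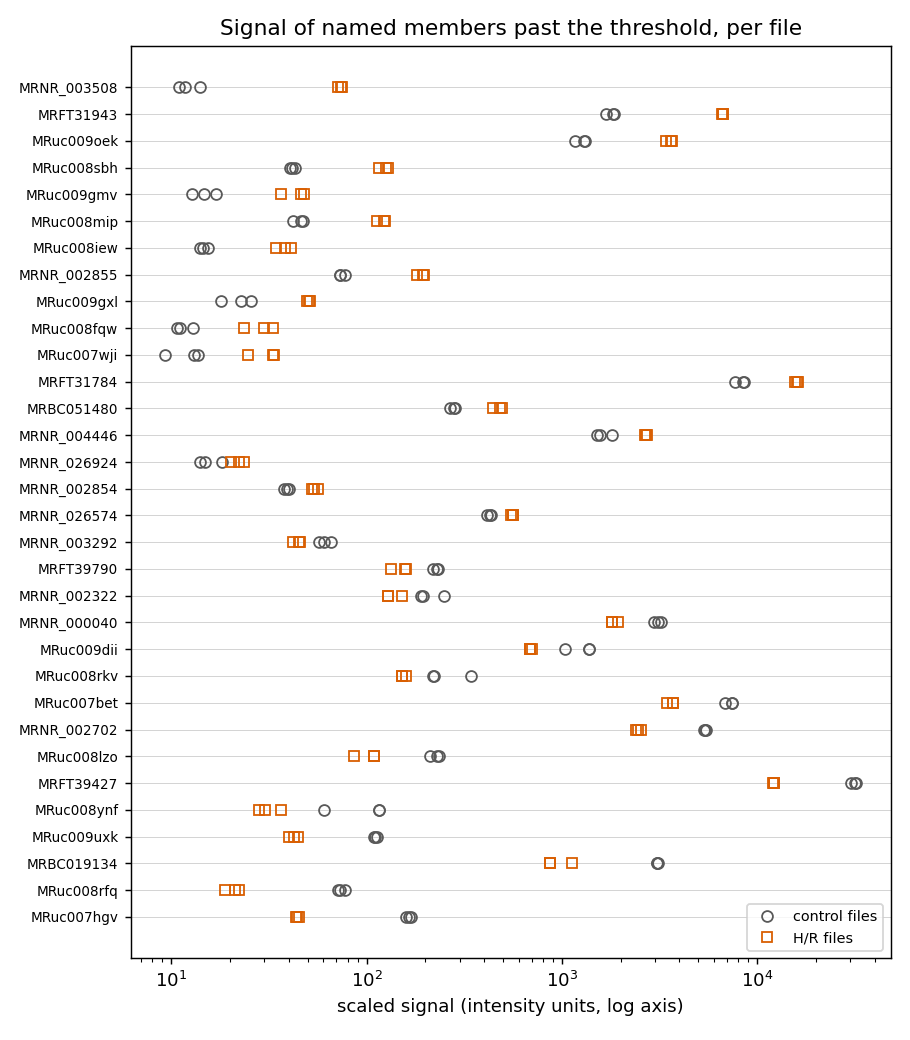
Scaled signal (log axis, intensity units) of the 32 named members past the threshold in each of the 3 control files (circles) and 3 H/R files (squares), ordered by fitted change. By the naming rule the files of one group lie on one side of those of the other in all 32, closest for MRNR_026924 at 18.1 against 20.3 units.

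Of MRLIT and the 10 small prefixes 9 members were tested and 0 passed, with 2 of the 9 at an unadjusted p under 0.05 in limma. MRLIT1112 differed by 0.19 ± 0.12 and MRLIT3398 by -0.03 ± 0.12. Among the single accessions, MRAB030205 was the farthest from 0, at -0.55 ± 0.16 (limma adjusted p = 0.0624). It read 467, 622 and 629 units in the control files and 357, 379 and 382 in the H/R files, with every H/R file below every control file. It passed with median scaling (limma adjusted p = 0.0372) and with the filter on all 6 files (limma adjusted p = 0.0475). MRAJ250192 differed by -0.35 ± 0.13, MRX95075 by 0.22 ± 0.12 and MRU48241 by 0.18 ± 0.13. MRAF173359 (0.02 ± 0.11) and MRY07561 (0.06 ± 0.14) lay near 0. MRZ78142 (-0.23 ± 0.35) had the most spread, at 26.8 to 62.3 units in control and 25.8 to 39.7 in H/R.

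When each H/R array was set against the control array of the same number, without shared samples, 315 of the 419 tested members changed the same way in both pairs and 104 in opposite ways. The 79 called members are among the 315, which the test itself largely requires, and their sizes could differ between pairs, as for MRuc008ynf (-0.73 and -1.99). Across the 419 members the changes of these pairs correlated at r = 0.845 (0.804 over all tested probes); the pairs share the slide, the array design and the scaling, and members are not replicates. Each usable spot of a probe moved the same way in 297 of the 419 tested members, in 219 of the 340 not called and in 78 of the 79 called, which were selected for a clear change. The exception among the called was MRuc007cgx, singled out after its values were seen, whose spots ranged from -0.24 to 1.81. Between arrays of a group tested members differed by a median of 0.14 in control and 0.11 in H/R, against 0.15 and 0.12 over all tested probes. The 3 H/R files lay wholly on one side of the 3 control files in 244 of 419 members, or 58.2%, against 62.1% of all tested probes, so this separation alone does not single out the members.

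**Figure D4:**
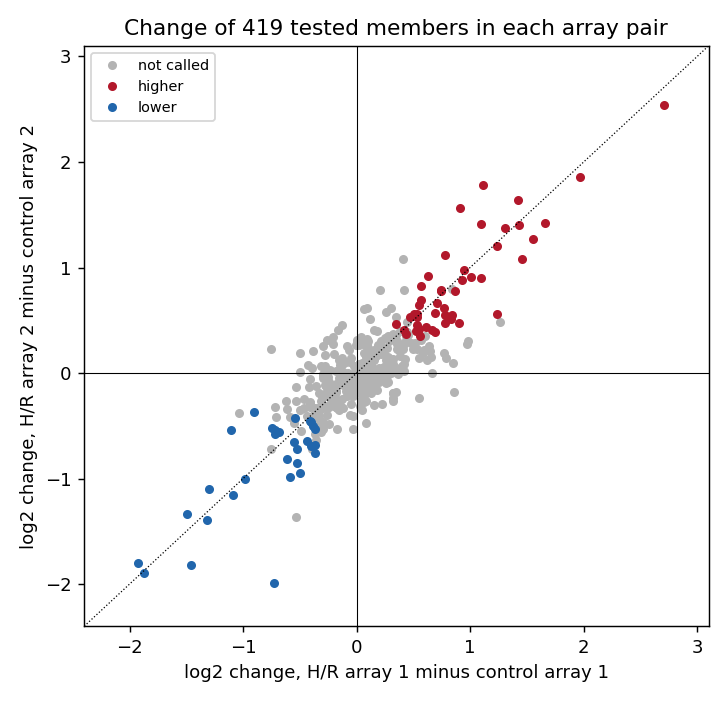
Log2 change of each of the 419 tested members in array pair 1 (horizontal axis) and array pair 2 (vertical axis). Files 2 and 3 of a group are averaged as array 2, and called members are red (higher) or blue (lower). All 79 called members lie in the lower left or upper right quadrant; the dotted line marks equal change.

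Leaving out 1 array leaves a group with a single array, which is then assumed to vary like the other group. Leaving out any 1 of the 4 arrays moved the fitted fold of 0 of the 32 named members past the threshold by over 1.5 times. They were picked as called in these same arrays, and an array left out still counted in the filter for testing. Some of them entered the test through 1 group alone, so this stability is partly set by selection. MRFT39790, MRNR_026924, MRNR_002854, MRNR_026574, MRNR_003292, MRNR_002322 and MRuc008rkv lost the call without at least 1 array, with limma adjusted p up to 0.194. Without any 1 of the 4 arrays fewer members were called, and so were fewer of all tested probes. Part of the 79 calls was lost each time, and some of the members called then were not among the 79.

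Other probe classes were tested in the same fit. MRAK probes had 166 of 1829 higher and 208 lower, with a median of 0.00. RefSeq non-coding probes had 83 of 1054 higher and 67 lower, and coding probes 13.5% higher and 10.8% lower. Whether these shares differ was not tested. Of 50 lncRNA genes listed by name only 3 were matched on the array: H19, an imprinted transcript, differed by 0.04 ± 0.17, and Gas5, a host of small nucleolar RNAs, by -0.04 ± 0.15. Rpph1, the RNA component of ribonuclease P, rose by 0.59 ± 0.11 (limma adjusted p = 0.0185).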

How the data were processed

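RNA of 3 control and 3 H/R samples was hybridised to 1-colour Agilent arrays; the labelling used random primers after depletion of ribosomal RNA, per the labels' protocols. The deposited scanner files hold an intensity per spot, extracted by the authors with Agilent Feature Extraction 11.0.1.1 per the file headers, corrected for background within the array but with no scaling from array to array. Per spot the deposited files also flag outliers and signals well above background. A second table from the authors lists log2 values of 16841 probes, with column medians of 9.182 to 9.187 and r of 0.9998 to 0.9999 against the scanner data; the sources used here do not state how it was normalized.

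Without control spots and outliers, each probe's level was its mean log2 intensity over spots, minus the file's 75th percentile over spots (956 to 1431 units before the log). A probe counted as well above background in a file where over 0.5 of its usable spots carried the flag. Between 58.4% and 71.1% of spots did, 0 were saturated, and the number of arrays limits the precision. Replicates 2 and 3 of a group were averaged as 1 array. The groups were compared with limma 3.58.1 in R 4.3.3 (lmFit, eBayes, two-sided, 2 residual and 3.79 prior degrees of freedom), with Benjamini-Hochberg adjustment over 15899 probes at 0.05; Python 3.11.15 was used for reading and figures. The fit was tested on simulated data. The 4 arrays occupied different positions of 1 slide, so the effects of position and of group cannot be told apart. The files hold no mean spot signal, so normexp (offset 50) used the median. Named members are, per prefix, the 8 largest rises and 8 largest falls past the threshold with files that did not overlap, the 3 brightest with the 2 of them nearest to 0 change, and up to 4 each way detected in 1 group alone; others are marked as picked later. Members, lists and rules were chosen with earlier results of these data known.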

Additional observations from a re-analysis of the deposited data

How the results depend on the processing

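Leaving out any 1 file or array gave 26 to 51 members higher and 16 to 30 lower, against 49 and 30, with medians of -0.0037 to 0.070. With 6 files as separate samples 100 were higher and 91 lower, with the scan as a block 89 and 85, and with those files and a replicate block 98 and 99; these fits count 2 scans as 2 samples. Same-numbered arrays share only a number (their deviations correlated at 0.153 over all tested probes and 0.284 over the tested members, with only 2 numbers), and the replicate block on averaged arrays gave 62 higher and 49 lower, keeping all 79 calls; with it MRNR_003372 (limma adjusted p = 0.0045) and MRAB030205 (limma adjusted p = 0.0261) passed too. Median scaling gave 40 and 50, no scaling 12 and 8, no filter on dim probes 8 and 7, normexp 0 and 0, and the ordinary two-sample test 0 and 0. Unadjusted, 22 and 113 members had p under 0.05 in the last 2. The filter on all 6 files gave 42 and 38, which nearly removes the surplus of rises. Quantile normalization (49 and 39), the authors' deposited table (46 and 36), the first scan alone (51 and 29) and the percentile over probes (61 and 27) stayed, like it, within 1.5 times both counts. The median change of the members, 0.03, became -0.018 after quantile normalization, -0.049 after median scaling, 0.60 after normexp, -0.019 in the authors' deposited table and 0.075 with the percentile over probes. Of all members 64.1% were well above background in at least 1 file and 45.9% in all 6, against 51.2% tested. Under normexp the sign turned for MRFT39790 (0.14), MRNR_003292 (0.68), MRNR_002322 (0.07), MRuc008ynf (0.30), MRuc009uxk (0.23) and MRuc008rfq (0.43), none of which passed there; the cause was not tested. Of the called members 14 were kept without the filter on dim probes and 20 without scaling, and outside normexp every called member kept its sign in each alternative that measured it (64 of 79 with the filter on all 6 files). The second scan alone has 1 file per group and gives values without a test. The percentile over probes and the fits without both scans of an array were added after seeing the data. Signal near background limits the dim members most.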

Other observations

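Some members with sizeable fitted changes did not pass, and their arrays disagreed; they were picked after their values were seen. MRuc008ymd had the largest such change, -0.95 ± 0.31 on the log2 scale (limma adjusted p = 0.0804), and read 480.5, 427 and 433 units in the control files and 331, 168 and 166 in the H/R files. The H/R arrays differed about as much as the groups did. MRuc008jzy read 20.1, 34.0 and 37.3 units in the control files and 48.1, 51.7 and 47.9 in the H/R files, a difference of 0.87 ± 0.27 (limma adjusted p = 0.0660). MRuc008dua and MRuc008ygk differed by 0.74 ± 0.32 and -0.74 ± 0.25, with gaps between H/R arrays of 0.99 and 0.53.

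The authors' deposited table lists 501 of the 819 members. It holds all 419 members tested here, and the 79 called members had the same sign in it.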
